A study of Mus musculus with 9 samples.

Results

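Cultured myoblasts, the dividing precursors of skeletal muscle fibres, were compared between a reserve cell population titled FRCs Cycle 1 (FRC1) and the parental population it is named beside (PAR). The sample titles chose 3 FRC1 and 3 PAR libraries, 6 of the 9 in the series; the other 3, from SRCs of cycle 3, helped to set the spread between replicates in the fit. Both groups were skeletal muscle myoblasts of the inbred mouse strain FVB/N, and the labels name no altered gene, no added agent and no clone for either, nor the age of the animals. The FRC1 cells were grown in proliferation conditions and passaged 2 times between their isolation and the harvest, so FRC1 was harvested as a growing and not as a resting culture. No passage number is given for PAR. Differences due to passage or to the isolation therefore cannot be told apart from those of the reserve cell population. Nothing in the labels tells whether replicates of a group came from separate cultures, so the p-values rest on a spread among libraries that may be technical only.

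Each of the 6 libraries held 13134823 to 14336279 reads counted to genes, with 17071 to 17416 genes detected. The files list 47729 genes, and 12540 had enough reads to be tested. Levels are given as CPM, the reads of a gene scaled to a common library total, with library sizes adjusted by the trimmed mean of M values (TMM), and 3 reads in a library correspond to 0.209 to 0.228 CPM. A gene is called here when its adjusted p from edgeR's quasi-likelihood test is under 0.05, and every fold change is FRC1 over PAR; a log2 difference is the fitted log2 fold change, given with its standard error (SE).

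The labelled cell type was checked against marker genes. Summed over 10 myoblast markers, the level was 3226 to 3303 CPM in PAR and 3055 to 3132 CPM in FRC1. Of the 9 that were tested 4 were called lower, Cdh15, Des, Fgfr4 and Vcam1, and Ncam1 was called higher (median log2 fold change -0.16). Pax7, also on this list, was not among those called. Myod1, a master regulator of the muscle lineage, stood at 774, 763 and 793 CPM in the 3 PAR libraries and at 785, 773 and 754 CPM in the 3 FRC1 libraries, and these values overlap. Myf5, its close relative, had no read in any of the 6 libraries, so this defining marker is absent from both groups. Of 14 immune markers 8 had no read at all, and the summed level was 6.25 to 6.58 CPM in PAR and 6.3 to 6.98 CPM in FRC1. Markers of differentiated muscle moved with the group: 7 of 9 tested were called higher and none lower, and their summed level was 11.5 to 14.7 CPM in PAR and 99.4 to 118 CPM in FRC1. No read was found for 4 of 8 tenocyte markers, 4 of 11 endothelial markers, 4 of 9 adipocyte markers, 3 of 11 glial and neural markers and 2 of 12 markers of fibro-adipogenic progenitors, the connective tissue cells of muscle. Several of these sums nevertheless moved with the group. Glial and neural markers summed to 208 to 215 CPM in PAR and 239 to 301 CPM in FRC1, with Ncam1 and Tubb3 higher and Mbp lower. Ncam1 is also one of the myoblast markers above. Adipocyte markers summed to 51.2 to 52.6 CPM in PAR and 33.3 to 37.4 CPM in FRC1, with Lpl lower and Cebpa higher. Cebpa was not called without FRC1 replicate 2 or PAR replicate 2 (edgeR adjusted p at most 0.0773). Of 4 tested markers of fibro-adipogenic progenitors 3 were lower, although the summed level was 22.4 to 23.7 CPM in PAR and 17.4 to 39.1 CPM in FRC1. With DESeq2 or without FRC1 replicate 2, 0 were lower, and without any other 1 PAR or FRC1 library 1 was lower. Without FRC1 replicate 1, 1 of the 4 was also called higher. The marker not called with all libraries was Smoc2, at 8.11, 29.7 and 16.2 CPM in the FRC1 libraries. Endothelial markers had 16.4 to 18.1 and 10.9 to 14.9 CPM and tenocyte markers 22.6 to 27.3 and 30.7 to 31 CPM. The part of any of these markers in the results was not tested. In bulk RNA, fewer cells of a kind and less RNA in each cell cannot be told apart.

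Reserve cells are the cells of a myoblast culture that stay single and undifferentiated while their neighbours fuse into myotubes, and they can resume growth when returned to growth medium. Proteins that a cell secretes, those of the matrix among them, pass through the endoplasmic reticulum (ER). There, chaperones and disulphide isomerases fold the new chains, and the unfolded protein response adjusts the supply of these helpers through sensors that act by ATF6, by splicing of Xbp1 mRNA, and by phosphorylation of the translation factor eIF2 with synthesis of ATF4.

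Of the 12540 tested genes, 3550 were called (28.3%), 1702 higher (13.6%) and 1848 lower (14.7%) in FRC1. Only 330 genes (2.63% of those tested) were called with at least a 2-fold difference, 163 higher and 167 lower. The extremes leaned upward, with 60 genes higher and 18 lower by 4-fold or more. The sarcomere and contractile list, set aside here, held 30 genes called with at least a 2-fold difference among 45 tested. In the group with the lower level, 89 of the 163 rises and 72 of the 167 falls were under 1 CPM. The median log2 fold change of all tested genes was 0.0034. The 3 FRC1 libraries lay wholly above the 3 PAR libraries in 2735 genes (21.8%) and wholly below them in 2804 (22.4%). The count of calls rested partly on single libraries: without FRC1 replicate 3 it was 2327, with 1080 higher, and without PAR replicate 1 the higher genes numbered 1130. FRC1 replicate 1 stood nearer to PAR than the other FRC1 libraries in most called genes, and without it 3660 genes were called.

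**Figure D1:**
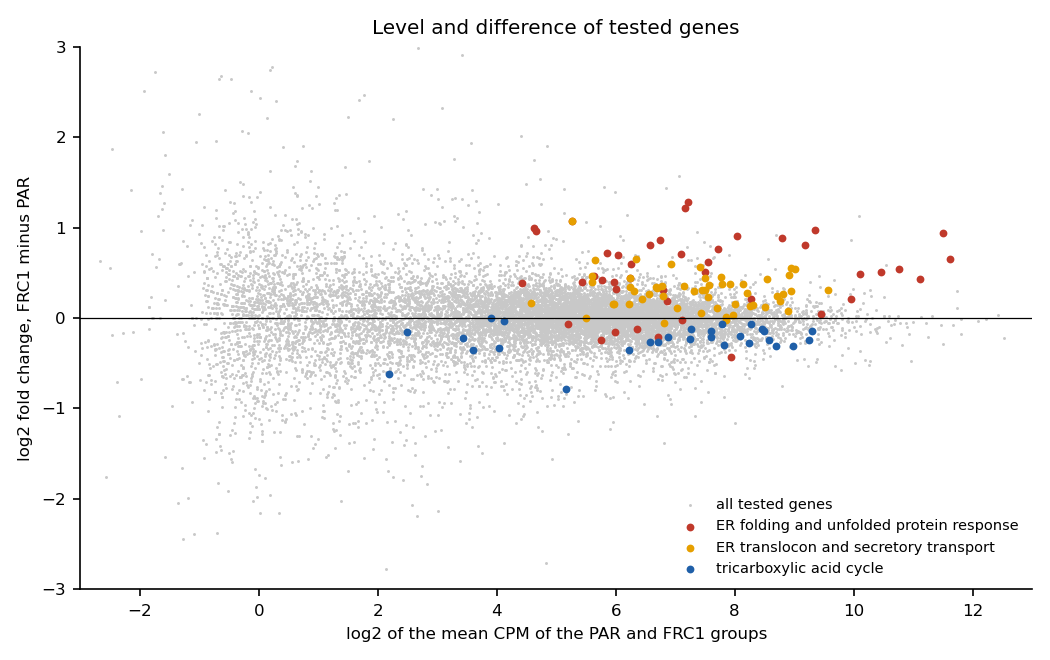
Each point is a tested gene, with the log2 of its mean CPM over the PAR and FRC1 groups on the horizontal axis and its log2 fold change (FRC1 minus PAR) on the vertical axis; 54 genes outside the axis limits are not drawn. Members of the ER folding list (red) and the ER translocon list (orange) lie mostly above 0, with differences mostly under 2-fold, and members of the tricarboxylic acid cycle list (blue) lie mostly below 0.

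The ER folding machinery was higher in FRC1. Of 43 tested genes of a list of 44 for ER folding and the unfolded protein response, 35 were called higher and 2 lower, against 13.6% and 14.7% of all tested genes, and the median log2 fold change was 0.51. Their summed level was 15070 to 15810 CPM in the PAR libraries and 21940 to 23640 CPM in the FRC1 libraries. The count of higher members stayed between 33 and 35 over the alternative settings and with each library left out.

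The 5′ flanks of these genes are shown first, because an element known to respond to unfolded protein could be read directly from some of them. The ER stress element, bound by ATF6 together with NF-Y, was searched as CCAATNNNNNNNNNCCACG on both strands in windows of 300 bases, from 250 before to 50 after each start in the RefSeq promoter table (build GRCm38.p6). Below, 4 promoters are given, each as the 250 bases before the start, 5′ to 3′ along the gene's strand, with every match in capitals; they are those of 3 major ER chaperones and of Creld2, whose relative rise was among the largest of the list.

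Hspa5, chr2:34771840-34772089, plus strand: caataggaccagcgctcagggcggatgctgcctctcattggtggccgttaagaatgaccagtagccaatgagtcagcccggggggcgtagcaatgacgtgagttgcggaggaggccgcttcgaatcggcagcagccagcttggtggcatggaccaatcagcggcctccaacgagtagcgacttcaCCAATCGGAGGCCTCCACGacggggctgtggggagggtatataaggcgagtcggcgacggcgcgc
Hsp90b1, chr10:86705445-86705694, minus strand: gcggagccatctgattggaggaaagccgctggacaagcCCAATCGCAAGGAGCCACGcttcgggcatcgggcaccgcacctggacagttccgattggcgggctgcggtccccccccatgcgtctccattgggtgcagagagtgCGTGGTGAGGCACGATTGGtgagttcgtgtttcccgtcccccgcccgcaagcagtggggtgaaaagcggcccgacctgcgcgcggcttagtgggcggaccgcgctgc
Calr, chr8:84846932-84847181, minus strand: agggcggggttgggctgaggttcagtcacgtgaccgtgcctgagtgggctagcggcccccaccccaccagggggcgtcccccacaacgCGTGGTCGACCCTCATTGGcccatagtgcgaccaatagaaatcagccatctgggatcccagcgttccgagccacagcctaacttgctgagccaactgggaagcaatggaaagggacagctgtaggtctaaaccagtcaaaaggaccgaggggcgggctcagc
Creld2, chr15:88819396-88819645, plus strand: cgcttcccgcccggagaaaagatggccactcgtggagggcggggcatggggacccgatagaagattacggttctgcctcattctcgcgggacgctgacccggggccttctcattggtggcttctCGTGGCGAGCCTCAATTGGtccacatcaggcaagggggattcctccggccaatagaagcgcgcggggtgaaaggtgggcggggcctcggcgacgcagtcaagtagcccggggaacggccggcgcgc

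Hspa5 has its match 65 to 47 bases before the start, and Hsp90b1 has 2 matches, one on each strand. In Calr and Creld2 the match lies on the other strand, so it reads CGTGG first and ATTGG last. The same element, with other bases in its middle, was found in Pdia6 (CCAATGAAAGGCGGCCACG), Dnajc3 (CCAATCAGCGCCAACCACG), Syvn1 (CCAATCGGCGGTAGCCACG), Ero1lb (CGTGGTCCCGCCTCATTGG) and Canx (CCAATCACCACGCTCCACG). Of the 43 tested genes of the ER folding list, 37 had a promoter in the table, and 9 of these (24.3%) held the element, against 16 of 9430 tested genes with a promoter (0.17%) and 39 of 32851 promoters in the whole table (0.119%). All 9 were called higher, with a median log2 fold change of 0.81. Of the 70 genes of both ER lists whose promoters lacked the element, 50 were also called higher and 1 lower, with a median of 0.31. The 9 holders were all of the ER folding list, while the 70 include the ER translocon genes, whose list had a median of 0.30. The medians of holders and others therefore differ by list as well as by the element. Within the ER folding list Creld2 (log2 fold change 1.22) held the element and Sdf2l1 (1.28) lacked it.

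Outside both ER lists 7 tested genes held the element, of which 3 were called higher, 1 lower and 3 were not called. One of the 3 was Alg12, a mannosyltransferase of the ER that builds the sugar precursor for glycoproteins, which rose from 17.8 to 31 CPM (log2 difference 0.80 with an SE of 0.083, edgeR adjusted p = 9.70e-07). Alg12 and Creld2 are neighbours that are read in opposite directions, and the match in both promoters is a single element at chr15:88819520-88819538. Zfp57, a zinc finger protein of imprinting control, was also higher (76.8 to 108 CPM, log2 fold change 0.50) and Adcy3, an adenylate cyclase, was lower (13.1 to 8.89 CPM, log2 fold change -0.56). The element was searched for after the calls of the ER genes had been seen. It is known from promoters of ER chaperone genes, so a high share in the ER folding list followed from its choice. That share therefore tests nothing in these data. The E-box CANNTG, the motif of the MyoD family, was in 66.4% of promoters of the genes called higher and in 66.3% of those of all tested genes. It is short and present in most promoters, so its share could hardly differ between these sets. Other motifs were searched in the same 2 sets. CAGCTG was in 16.3% and 17.5%, and the CArG box in 2.25% and 1.61%. TGANTCA was in 6.47% and 5.99%, and TGACGTCA in 4% and 3.8%. Over the same genes called higher the ER stress element was in 12 (0.873%), against 0.17% of all tested genes with a promoter. Of these 12 holders 9 were members of the ER folding list. A match describes these letters and shows nothing about binding.

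Hspa5 encodes BiP, the main Hsp70 chaperone of the ER. Its level was 2021, 2029 and 1885 CPM in the PAR libraries and 3481, 3939 and 3993 CPM in the FRC1 libraries, a 1.92-fold difference (log2 difference 0.94 with an SE of 0.07, edgeR adjusted p = 2.98e-07). All 3 FRC1 libraries were above all 3 PAR libraries, with replicate 1 the lowest of the FRC1 libraries. Hsp90b1, the ER member of the Hsp90 family, had 2532, 2364 and 2410 CPM in PAR and 3663, 3899 and 3946 CPM in FRC1 (log2 difference 0.66 with an SE of 0.046, edgeR adjusted p = 8.92e-09). Calr, a lectin chaperone that holds calcium, had 1965, 1864 and 1820 CPM in PAR and 2460, 2550 and 2595 CPM in FRC1 (log2 difference 0.43 with an SE of 0.044, edgeR adjusted p = 7.19e-07). In both of these genes, too, the groups did not overlap.

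Among the largest relative rises of the list were those of cofactors that act beside the chaperones. Sdf2l1, a component of an ER chaperone complex, rose from 88.1, 91.4 and 81.2 CPM to 203, 204 and 226 CPM (2.43-fold; edgeR adjusted p = 1.43e-07). Creld2, an ER stress-inducible protein, rose from 90.5, 87.5 and 80.7 CPM to 192, 201 and 208 CPM (2.33-fold; edgeR adjusted p = 3.76e-08). Hyou1, a nucleotide exchange factor for BiP, rose from 441, 448 and 428 CPM to 827, 854 and 909.9 CPM (1.97-fold; edgeR adjusted p = 2.22e-07). In each of the 3 the lowest FRC1 library was well above the highest PAR library. Manf, a secreted ER-resident trophic factor, went from 311 to 574 CPM, and the BiP cochaperones Dnajb9, Dnajc3 and Dnajb11 from 16.5 to 32.9 CPM, 182 to 341 CPM and 157 to 266 CPM, all called. Of the disulphide isomerases, Pdia3 rose 1.46-fold, Pdia4 1.75-fold, Pdia6 1.43-fold and P4hb 1.4-fold. Serpinh1, the collagen chaperone HSP47, rose from 1197, 1184 and 1194 CPM to 1784, 1735 and 1843 CPM (edgeR adjusted p = 2.33e-07). The machinery that returns misfolded protein to the cytosol was higher as well, with Syvn1, a ubiquitin ligase of the ER membrane, at 69.3 CPM in PAR and 122 in FRC1 and its partner Herpud1 at 76.3 and 138 CPM.

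Genes of the sensors and of the separate branches gave mixed values. Xbp1, whose mRNA is both a target and an effector of the pathway, had 145, 161 and 138 CPM in PAR and 224, 232 and 225 CPM in FRC1 (log2 difference 0.61 with an SE of 0.054, edgeR adjusted p = 1.55e-07); the files count whole genes, so its spliced and unspliced forms were not separated. Of the sensors themselves, Eif2ak3, the PERK kinase, was higher (32.4 to 41.3 CPM, log2 fold change 0.35; edgeR adjusted p = 5.80e-04), Ern1, the IRE1 kinase, was not called (43.1 to 45.9 CPM; edgeR adjusted p = 0.36), and Atf6 was slightly lower (112 to 96.9 CPM, log2 fold change -0.20; edgeR adjusted p = 0.0051). Genes of the ATF4 arm were called in both directions or not at all. Atf5, a factor of the same arm, was slightly higher (288 to 333 CPM, log2 fold change 0.21; edgeR adjusted p = 0.0021). Atf4 itself stood at 707, 691 and 659 CPM in PAR and 692, 724 and 709 CPM in FRC1, and the groups overlapped. Trib3, a pseudokinase induced by ATF4, had 66.6 and 60 CPM, Chac1, a glutathione-degrading enzyme, 58.2 and 49.3, and Ppp1r15a, the phosphatase subunit that ends the eIF2 block, 37.6 and 36, none of them called. Asns, the asparagine synthetase that ATF4 activates, was slightly lower (524 to 477 CPM, log2 fold change -0.14; edgeR adjusted p = 0.028), a call lost without FRC1 replicate 1 or 3 or PAR replicate 1 or 3, where the highest adjusted p was 0.125. Ddit3, the proapoptotic factor CHOP and a target of ATF4, was called higher (18.6 to 24.2 CPM, log2 fold change 0.38; edgeR adjusted p = 0.01), a call lost without PAR replicate 1 or 3, where the highest adjusted p was 0.0733. Wfs1, a calcium-handling ER protein, was lower in all 3 FRC1 libraries (283 to 209 CPM, log2 fold change -0.43; edgeR adjusted p = 9.87e-06).

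**Figure D2:**
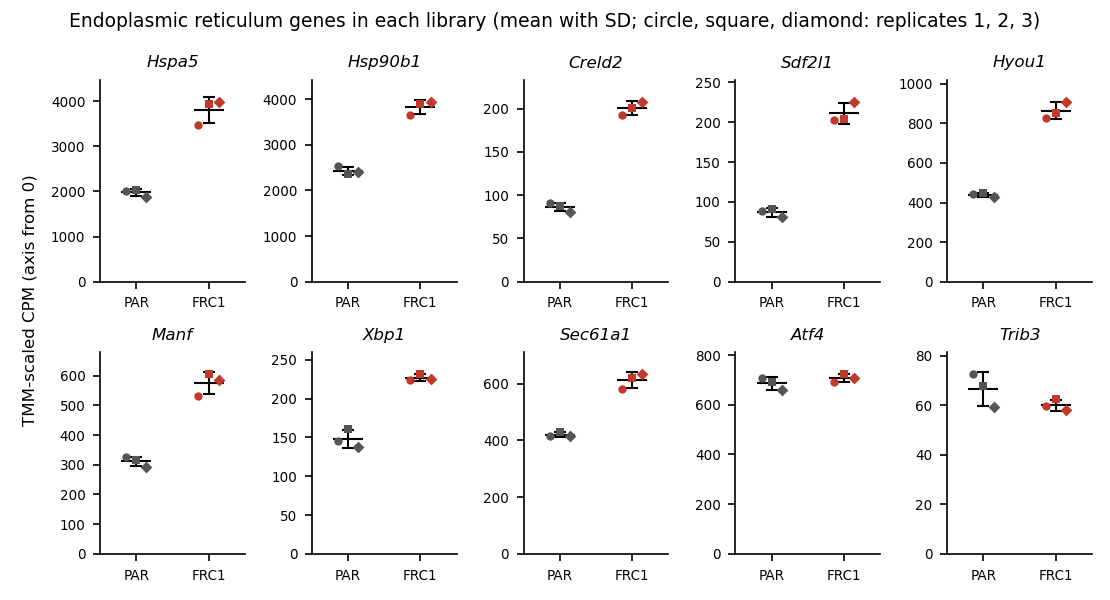
TMM-scaled CPM (vertical axis, from 0) of 10 ER and stress genes in each PAR and FRC1 library, with circles, squares and diamonds for replicates 1, 2 and 3, a horizontal line at the mean and bars of 1 SD. From Hspa5 to Sec61a1 the FRC1 points lie above all PAR points, while those of Atf4 and Trib3 overlap with PAR.

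The next steps of secretion were higher too. The list of the ER translocon, signal peptidase, glycosyltransferase and coated-vesicle genes had 40 of 54 tested members higher and 0 lower, with a median log2 fold change of 0.30 and a summed level of 10360 to 10580 CPM in PAR and 12470 to 13150 CPM in FRC1. Sec11c and Sec61b belong to both ER lists. Sec11c, a catalytic subunit of signal peptidase, had 24.6, 25.6 and 24.6 CPM in PAR and 41.7, 58.5 and 56.4 CPM in FRC1 (log2 difference 1.07 with an SE of 0.12, edgeR adjusted p = 5.28e-05). Sec61a1, the pore of the translocon, had 415, 429 and 415 CPM in PAR and 581, 621 and 634 CPM in FRC1 (log2 difference 0.55 with an SE of 0.051, edgeR adjusted p = 2.33e-07). The glycosylation subunits Rpn1 and Ostc and the cargo receptor Tmed3 rose 1.47-fold, 1.52-fold and 1.57-fold. The 14 members that were not called included the coat genes Arf1, Copb1 and Sec24d, with log2 fold changes of 0.08, 0.02 and -0.02. None of the 43 members with a promoter in the table held the ER stress element, and 6 held TGACGTGG, the unfolded protein response element, which occurred in 97 of 9430 tested genes (1.03%) and in 0 of the 37 ER folding genes. Of these 6 holders 3 were called higher, and the other 3 were Arf1, Copb1 and Sec24d, which were not called.

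Cytosolic chaperones were called in both directions. Of 38 tested heat shock and cytosolic chaperone genes 12 were higher and 8 lower, with a median of 0.046. Hsph1, a nucleotide exchange factor for cytosolic Hsp70, rose from 300, 295 and 289 CPM to 440.4, 470.3 and 478 CPM (edgeR adjusted p = 7.64e-09). The small heat shock proteins Cryab and Hspb2, which are neighbouring genes abundant in muscle, fell from 52.2 to 34 CPM and from 8.61 to 4.89 CPM. Hspa9, the mitochondrial Hsp70, also fell (1689 to 1445 CPM, log2 fold change -0.22).

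Genes for making ribosomes gave calls in only one direction, and most were not called. Among 58 ribosome biogenesis and nucleolar genes 17 were called higher and none lower (median 0.11), with Mrto4 and Rrp1b the most changed at log2 fold changes of 0.37 and 0.37. Of 82 cytosolic ribosomal protein genes 22 were higher and none lower (median 0.085). Both counts depended on single libraries: of biogenesis genes there were 8 higher without PAR replicate 3 and 9 higher without FRC1 replicate 3, and of ribosomal protein genes 8 higher without PAR replicate 3, 10 higher without PAR replicate 1 and 11 higher without FRC1 replicate 2 or 3. Without PAR replicate 3 the share of ribosomal protein genes called higher was therefore near that of all genes tested in that setting (1209 of 12723). Ribosomal protein genes have many near-identical copies, so their counts are uncertain. The proteasome list stood at the background or under it, with 2 of 38 higher and 1 lower (0 higher without FRC1 replicate 2 or 3 or PAR replicate 3 and 6 higher without FRC1 replicate 1).

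The calls among mitochondrial energy genes were mostly lower, by small steps. Enzymes of the tricarboxylic acid cycle and its pyruvate entry were mostly lower: 19 of 28 were called lower and 0 higher, with a median log2 fold change of -0.23 and a summed level of 6073 to 6310 CPM in PAR and 5151 to 5534 CPM in FRC1. Pdha1, the catalytic alpha subunit of pyruvate dehydrogenase, had 460.1, 457 and 462 CPM in PAR and 384, 366 and 363 CPM in FRC1 (log2 difference -0.31 with an SE of 0.043, edgeR adjusted p = 2.94e-05). Pdp1, the phosphatase that switches pyruvate dehydrogenase on, changed most, from 46.5, 43.3 and 46.2 CPM to 33, 24.3 and 21.8 CPM (edgeR adjusted p = 7.48e-05). For both genes every FRC1 library was below every PAR library.

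The calls in the respiratory chain were mostly lower as well, and most of its genes were not called. Of 58 nuclear genes for oxidative phosphorylation 19 were lower and 1 higher (median -0.087), with 12 lower without PAR replicate 1. Ndufs1, a core subunit of complex I, fell from 251 to 205 CPM, Sdha of complex II from 413 to 348 CPM, and Atp5b, the catalytic subunit of ATP synthase, from 2609 to 2258 CPM. Among 10 tested genes of the mitochondrial genome 5 were lower and 0 higher, with 3 lower without FRC1 replicate 2 or PAR replicate 1 and 8 lower without FRC1 replicate 1. mt-Cytb, of complex III, had 3315, 3068 and 3201 CPM in PAR and 2687, 2671 and 2487 CPM in FRC1 (log2 difference -0.29 with an SE of 0.052, edgeR adjusted p = 3.36e-04). Genes of mitochondrial ribosomes did not share this direction: 11 of 76 were higher and none lower, a share of higher members (14.5%) near the background of 13.6%, with 2 higher without PAR replicate 2, 3 higher without FRC1 replicate 3, 4 higher without PAR replicate 3 and 6 higher without FRC1 replicate 2 or PAR replicate 1.

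Ppargc1a, the coactivator that drives mitochondrial gene expression in muscle, was among the largest falls. It stood at 8.19, 7.96 and 8.88 CPM in PAR and at 2.42, 2.24 and 2.57 CPM in FRC1, 3.46-fold lower (log2 difference -1.79 with an SE of 0.16, edgeR adjusted p = 2.12e-07). The 3 values of each group lay close together, and the groups were far apart.

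Lipid and lysosomal genes were lower more often than higher. In the list of fatty acid synthesis, storage and oxidation 18 of 46 were lower and 7 higher, with 3 higher without any 1 PAR library and 4 higher without FRC1 replicate 1 or 3. The falls included Vldlr, a lipoprotein receptor (29.1 to 13.4 CPM), Lpl, which releases fatty acids from lipoproteins (48.6 to 30.8 CPM), Lpin1, a phosphatidate phosphatase and coactivator (8.65 to 4.43 CPM), and Scd1, a fatty acid desaturase (53.8 to 34.8 CPM). Plin2, a coat protein of lipid droplets, and Angptl4, an inhibitor of lipoprotein lipase, were higher instead, going from 117 to 152 CPM and 21.9 to 38.4 CPM. Of 68 lysosome and autophagy genes 25 were lower and 4 higher, and the summed level was 7463 to 7698 CPM in PAR and 6750 to 6808 CPM in FRC1. Asah1, acid ceramidase, had 128, 131 and 131 CPM in PAR and 91.2, 91.5 and 88.2 CPM in FRC1 (log2 difference -0.53 with an SE of 0.052, edgeR adjusted p = 4.68e-07), and Lamp2, a lysosomal membrane protein, fell from 162 to 119 CPM.

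Glycolytic and redox genes were lower in part. In the glycolysis and hypoxia list 12 of 37 were lower and 4 higher, with 1 higher without FRC1 replicate 3, 2 higher without PAR replicate 1 or 2 and 7 lower without PAR replicate 1. Slc16a3, the lactate exporter MCT4, fell from 15.7 to 7.53 CPM, and Hk1, a hexokinase, from 195 to 136 CPM. Of 48 genes of glutathione, thioredoxin and the NRF2 response 15 were lower and 3 higher, with 1 higher without FRC1 replicate 2 and 9 lower without FRC1 replicate 3 or PAR replicate 1. Mt2, a metallothionein that binds zinc and copper, was 2.31-fold lower (35.9 to 15.6 CPM, log2 fold change -1.21), and Hmox1, haem oxygenase, fell from 75.1 to 52.1 CPM.

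**Figure D3:**
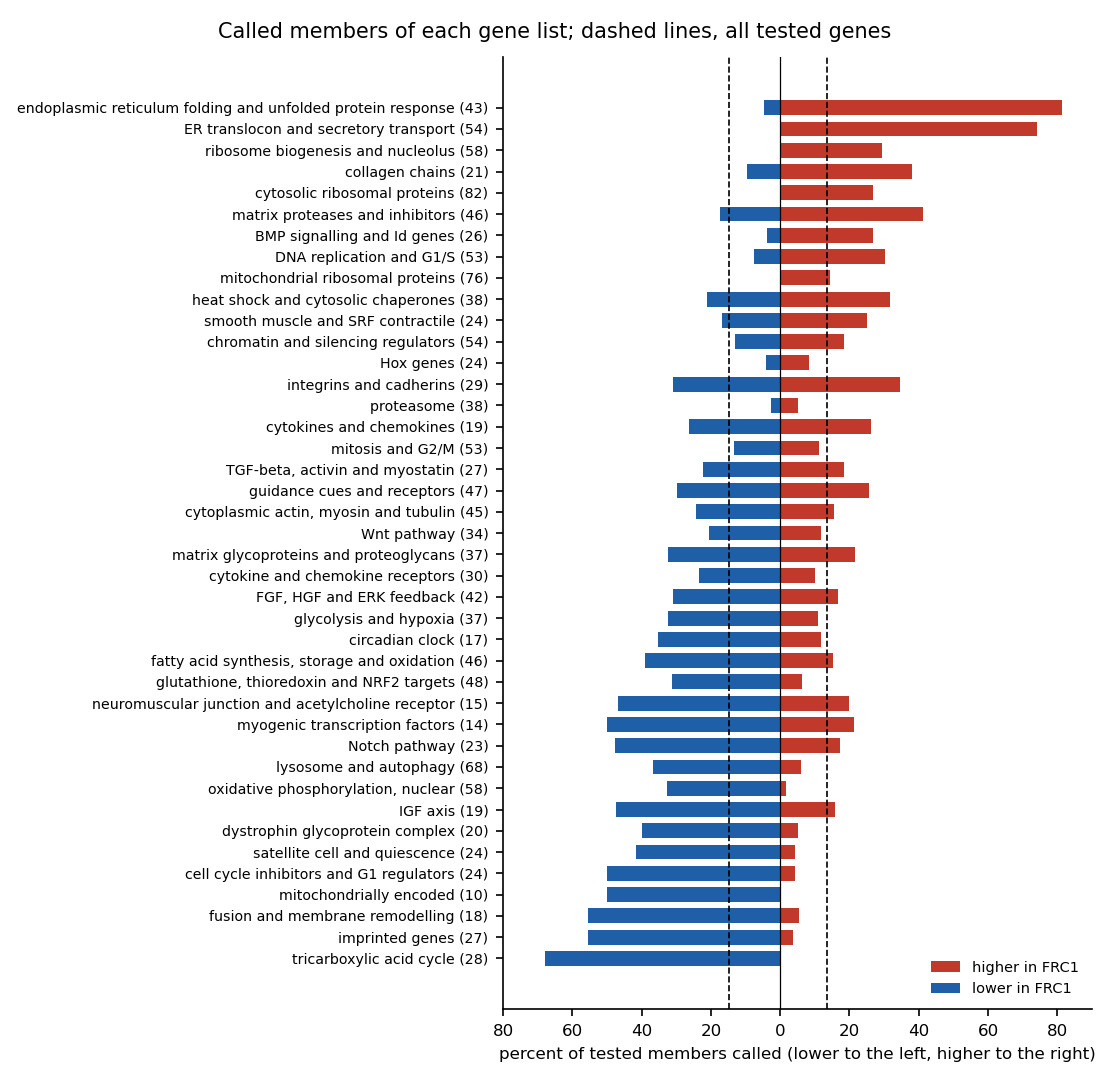
Percent of tested members of 41 gene lists called higher (red, to the right) or lower (blue, to the left) in FRC1, with the number of tested members in brackets and dashed lines at the share of all tested genes, 13.6% higher and 14.7% lower. The 2 ER lists reach 81.4% and 74.1% higher, and the tricarboxylic acid cycle list reaches 67.9% lower.

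Secreted and matrix genes changed in both directions. Among 46 matrix proteases, inhibitors and matrix-modifying enzymes 19 were higher and 8 lower; among 21 tested of 40 collagen chains 8 were higher and 2 lower. The summed level of collagen chains was 2607 to 2645 CPM in PAR and 2546 to 2588 CPM in FRC1. Col3a1, a chain of fibrillar collagen in elastic tissues, fell from 579, 549.5 and 554 CPM to 394, 280 and 324 CPM (edgeR adjusted p = 6.01e-04). Of the chains that rose, Col7a1, of anchoring fibrils, went from 4.44 to 14.9 CPM, Col12a1, which decorates fibrils, from 9.08 to 17.4 CPM, and the fibril-nucleating Col5a1 from 134 to 189 CPM. Enzymes that act on collagen included P4ha2, a prolyl hydroxylase, which rose from 22.6 to 41.5 CPM, and Lox, the crosslinking lysyl oxidase, from 6.72 to 16 CPM, while Pcolce, which assists procollagen cleavage, fell from 203 to 119 CPM.

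Tnc, tenascin C, a glycoprotein of injured and growing tissue, showed a gain in CPM exceeded only by those of Hspa5 and Hsp90b1 among all tested genes. Its level was 661, 708 and 689 CPM in PAR and 1201, 1709 and 1592 CPM in FRC1 (log2 difference 1.13 with an SE of 0.20, edgeR adjusted p = 0.008), with the FRC1 libraries spread widely and replicate 1 the lowest. Fbln2, a fibulin of elastic matrix, rose from 140.3 to 245 CPM, and Has1, a hyaluronan synthase, from 3.67 to 9.87 CPM. Matrix genes that fell included Lama2, the laminin chain of the muscle basement membrane (53.3 to 29.2 CPM, log2 fold change -0.87), Nid2, which links laminin to collagen IV (29.6 to 14 CPM, log2 fold change -1.08), and Thbs2, a thrombospondin (5.06 to 1.73 CPM, log2 fold change -1.55). Timp3, a matrix-bound metalloproteinase inhibitor, had 4.48, 5.44 and 4.83 CPM in PAR and 10.5, 28.6 and 17 CPM in FRC1 (edgeR adjusted p = 0.013); its call was lost without PAR replicate 1, where the adjusted p was 0.0502. Timp2, a soluble relative, fell from 781, 770.3 and 768 CPM to 590, 517 and 546 CPM (edgeR adjusted p = 1.76e-06).

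Cytokine genes also divided. Il11, a cytokine of the gp130 family, rose 5.01-fold, from 3.22, 2.14 and 3.06 CPM to 11.4, 16.1 and 15 CPM (log2 difference 2.33 with an SE of 0.17, edgeR adjusted p = 2.03e-08), and Clcf1, of the same family, from 45 to 65.7 CPM. Il33, an alarmin that acts on immune cells, fell from 50.2, 48.1 and 49.8 CPM to 13.4, 4.13 and 5.27 CPM (log2 difference -2.72 with an SE of 0.33, edgeR adjusted p = 0.0011). The FRC1 libraries disagreed in size, since replicate 1 kept more Il33 than the other two, and without it the log2 fold change was -3.39. Csf1, the growth factor of macrophages, fell from 946, 964 and 1025 CPM to 723, 648 and 659.7 CPM (edgeR adjusted p = 0.0015). Tslp, an epithelial-type alarmin, and Kitl, stem cell factor, were lower as well, at 2.21 to 0.72 CPM and 33.8 to 19.3 CPM, as was the interleukin 1 receptor Il1r1 (63.8 to 38.1 CPM). Cytokines called in the list numbered 5 higher and 5 lower of 19 tested, with 3 higher without FRC1 replicate 3 or PAR replicate 1. Of their receptors 3 were higher and 7 lower of 30.

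Genes of the TGF-beta family were called in both directions, at shares not far above the background. Inhba, the activin A subunit, rose from 0.77, 0.689 and 0.711 CPM to 1.59, 3.15 and 2.28 CPM (edgeR adjusted p = 4.55e-04), and the ligand gene Tgfb1 went from 23.7 to 31.1 CPM. The receptor gene Tgfbr2 fell from 149.8, 152 and 154 CPM to 108, 96.4 and 95.4 CPM (edgeR adjusted p = 2.22e-07), and the signal transducer Smad3 from 41.9 to 31.4 CPM. Of the secreted antagonists, Fst, follistatin, fell from 12.2 to 7.11 CPM whereas Fstl3, its relative, rose from 24.6 to 44.4 CPM. Smad7, an inhibitory Smad, was higher (34.7 to 58 CPM). Over the list of 27 tested genes, 5 were higher and 6 lower, and over 26 genes of bone morphogenetic protein signalling 7 were higher and 1 lower. Mstn, myostatin, had no read in the 6 libraries.

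**Figure D4:**
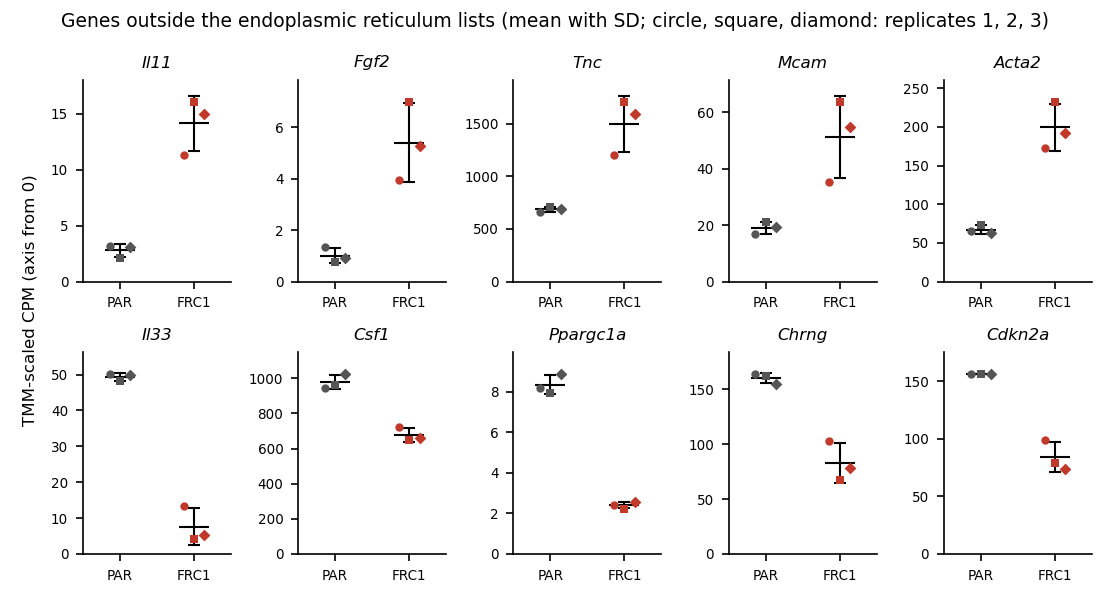
TMM-scaled CPM (vertical axis, from 0) of 10 genes outside the ER lists in each PAR and FRC1 library, with circles, squares and diamonds for replicates 1, 2 and 3, a horizontal line at the mean and bars of 1 SD. In the first 5 genes all FRC1 points lie above PAR, in the last 5 all lie below, and replicate 1 is the FRC1 point nearest to PAR in every gene shown but Ppargc1a.

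Genes of the contractile and microtubule cytoskeleton outside the sarcomere were called in both directions. Of 45 cytoplasmic actin, myosin and tubulin genes 7 were higher and 11 lower (median -0.0095), with 4 higher without FRC1 replicate 2 or 3 or PAR replicate 1 or 3. Acta2, smooth muscle actin, had 65, 73.6 and 63 CPM in PAR and 173, 233 and 192 CPM in FRC1 (log2 difference 1.57 with an SE of 0.25, edgeR adjusted p = 0.0046). Csrp1, a LIM protein of smooth muscle, rose from 116, 128 and 117 CPM to 173, 198 and 189 CPM (edgeR adjusted p = 0.0018), while Mylk, the kinase of smooth muscle myosin, fell from 2.26 to 0.913 CPM. Over 24 genes of smooth muscle contraction and serum response factor, 6 were higher and 4 lower, with a median of 0.027 and 2 lower without PAR replicate 3. Of 11 pericyte and smooth muscle markers, Acta2, Cspg4 and Mcam were higher and Des lower. The summed level of these markers was 809 to 844 CPM in PAR and 872 to 908 CPM in FRC1, most of it Des, which muscle also makes. Pdgfrb, Cnn1, Myh11, Kcnj8 and Abcc9, which define these cells, had at most 3 reads summed over the 3 libraries of either group.

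Cspg4, the NG2 proteoglycan, showed one of the largest relative rises: 0.56, 0.459 and 1.07 CPM in PAR against 4.47, 9.73 and 9.27 CPM in FRC1 (log2 difference 3.48 with an SE of 0.48, edgeR adjusted p = 8.77e-04). Mcam, an adhesion molecule of vessels and myogenic cells, rose from 16.9, 21 and 19.2 CPM to 35.3, 63.7 and 54.6 CPM (edgeR adjusted p = 0.0016), and Itga2, a collagen receptor subunit, from 6.54 to 17.3 CPM. Vcam1, an adhesion molecule also found on satellite cells, fell from 214 to 133 CPM. Tubb3, a tubulin best known from neurons, rose from 11.3, 13 and 9.95 CPM to 23.3, 50.1 and 41.1 CPM (edgeR adjusted p = 0.006). Tmsb4x, thymosin beta 4, which binds actin monomers, rose from 699, 686 and 718 CPM to 993, 1559 and 1282 CPM (edgeR adjusted p = 0.0065), and Cotl1, a coactosin, from 29.8 to 81.5 CPM. Vim, the intermediate filament vimentin, gave the largest loss in CPM of all genes, from 6551, 6419 and 6090 to 5607, 5336 and 5392 CPM (log2 difference -0.22 with an SE of 0.05, edgeR adjusted p = 0.0025). For Cspg4, Mcam, Tubb3, Tmsb4x and Vim the groups did not overlap, and FRC1 replicate 1 was the FRC1 library nearest to PAR.

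Factors and enzymes of late myogenesis rose from traces, while other myogenic factors fell. Myog, the factor that starts terminal differentiation, had 0.77, 0.383 and 0.569 CPM in PAR and 7.81, 10.8 and 8.34 CPM in FRC1 (log2 difference 3.94 with an SE of 0.27, edgeR adjusted p = 7.18e-09), and Mef2c, its partner, had 0.77, 0.306 and 0.426 and 7.12, 6.3 and 6.49 CPM (edgeR adjusted p = 1.77e-07). Mybph, a myosin-binding protein encoded beside Myog on chromosome 1, stood at 0.35, 0.153 and 0.213 CPM in PAR and 11, 14.8 and 12.8 CPM in FRC1 (edgeR adjusted p = 1.52e-04). Car3, the carbonic anhydrase of slow muscle, rose from 0.21, 0.0766 and 0.569 CPM to 8.64, 9.87 and 9.12 CPM (edgeR adjusted p = 3.84e-05). Without PAR replicate 3, which held the most Car3 of the PAR libraries, its log2 fold change was 5.89 in place of 4.95. Mef2a, another partner of these factors, fell from 189, 181 and 209 CPM to 134, 121 and 122 CPM (edgeR adjusted p = 2.84e-05) and Eya1, a cofactor of homeodomain proteins, from 80.3 to 49.2 CPM; 7 of 14 tested myogenic factors were lower and 3 higher.

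Genes of cell fusion and of the nerve contact were called lower more often than higher. In the fusion and membrane remodelling list 10 of 18 were lower and 1 higher, with a median log2 fold change of -0.26. Myof, myoferlin, fell from 661, 656 and 672 CPM to 509, 458 and 480.4 CPM (edgeR adjusted p = 2.47e-06), and Stab2, a phosphatidylserine receptor, from 4.56 to 2.44 CPM. Of the acetylcholine receptor and synapse genes 7 of 15 were lower and 3 higher, with 1 higher without FRC1 replicate 3 or PAR replicate 2 and 5 higher without FRC1 replicate 1. Chrng, the subunit of the fetal receptor, had 164, 162 and 155 CPM in PAR and 103, 67.6 and 78.3 CPM in FRC1 (log2 difference -0.96 with an SE of 0.12, edgeR adjusted p = 4.27e-04), and the adjacent gene Chrnd, the delta subunit, had 247, 239 and 248 CPM and 179.8, 139 and 162 CPM (edgeR adjusted p = 4.41e-06). Lrp4, the receptor of agrin, fell from 78.3 to 48.2 CPM. In the dystrophin complex 8 of 20 were lower and 1 higher, with 5 lower without FRC1 replicate 2 or PAR replicate 3; Sgca, alpha-sarcoglycan, went from 8.38 to 3.66 CPM.

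Notch genes were called lower more often than higher. Of 23 tested genes 11 were lower and 4 higher, with 2 higher without FRC1 replicate 3 or PAR replicate 3 and 7 lower without FRC1 replicate 3 or PAR replicate 3. The ligand gene Dll1 fell from 6.58, 6.82 and 8.6 CPM to 3.33, 3.08 and 2.78 CPM (edgeR adjusted p = 1.42e-05), while another ligand gene, Jag1, rose from 9.03, 10.3 and 11.2 CPM to 14.5, 24.1 and 18 CPM (edgeR adjusted p = 9.88e-04). The receptor gene Notch1 fell from 106 to 76.5 CPM and the feedback target Nrarp from 4.81 to 2.77 CPM. Among satellite cell and quiescence genes 10 of 24 were lower and 1 higher; Fgfr4, a receptor of dividing myoblasts, fell from 24.1, 27.2 and 28.4 CPM to 19.7, 12.2 and 16.2 CPM (edgeR adjusted p = 4.74e-04), and Gas1, a growth arrest gene, from 26 to 16.4 CPM.

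Growth factor genes changed in both directions. Fgf2, a mitogen of myoblasts, rose from 1.33, 0.766 and 0.924 CPM to 3.94, 7 and 5.27 CPM (log2 difference 2.41 with an SE of 0.26, edgeR adjusted p = 1.32e-06). Etv1, a transcription factor downstream of fibroblast growth factors, fell from 46.4, 42.4 and 48.2 CPM to 30.1, 18.6 and 21.3 CPM (edgeR adjusted p = 4.25e-04). In the list of fibroblast and hepatocyte growth factors and ERK feedback 13 of 42 were lower and 7 higher, with 4 higher without PAR replicate 1. In the insulin-like growth factor axis 9 of 19 were lower and 3 higher. Igf2 itself rose from 0.84, 0.613 and 0.924 CPM to 2.35, 1.75 and 2.49 CPM (edgeR adjusted p = 0.0011), while Igf2r, which clears the protein, fell from 128 to 88.3 CPM and Irs1, the adaptor of the receptor, from 166 to 126 CPM.

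Guidance molecules were called often, 12 higher and 14 lower of 47. Sema3e, a repellent semaphorin, had 221, 223 and 235 CPM in PAR and 140, 104 and 114 CPM in FRC1 (log2 difference -0.93 with an SE of 0.083, edgeR adjusted p = 3.38e-06). Robo1, the receptor of Slit proteins, fell from 95.1, 94 and 97.4 CPM to 59.4, 47 and 48.5 CPM (edgeR adjusted p = 8.57e-08). Unc5b, a netrin receptor, rose from 129, 133 and 124 CPM to 198, 264 and 229 CPM (edgeR adjusted p = 2.30e-04), and Ephb6, an Eph receptor without kinase activity, from 8.23 to 17.1 CPM. Wnt genes stood near the background, with 4 higher and 7 lower of 34 (2 higher without PAR replicate 3). Apcdd1, an inhibitor of the pathway, fell from 74 to 40.8 CPM and Wnt7b, a ligand, rose from 60.8 to 98.7 CPM.

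Cell cycle inhibitors and G1 regulators, taken as 1 list, were called lower more often than higher. Of 24 genes 12 were lower and 1 higher, with a median log2 fold change of -0.27. The list also holds cyclin D1, so these are not counts of inhibitors alone. Cdkn2a, which encodes p16 and p19ARF, had 156, 156 and 157 CPM in PAR and 98.8, 79.2 and 74 CPM in FRC1 (log2 difference -0.90 with an SE of 0.081, edgeR adjusted p = 1.32e-06). Its neighbour Cdkn2b, encoding p15, had 90.9, 91.3 and 86.3 CPM and 60.2, 44.7 and 48.1 CPM (edgeR adjusted p = 3.20e-05). Mxd4, an antagonist of Myc, fell from 43.1 to 24.5 CPM, and Ccnd1, the G1 cyclin D1, from 1973, 2006 and 1975 CPM to 1706, 1571 and 1567 CPM (edgeR adjusted p = 9.54e-05). For each of these 4 genes every FRC1 library was below every PAR library.

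Replication genes were called higher more often than lower (16 and 4 of 53, with 10 higher without FRC1 replicate 3 and 2 lower without PAR replicate 1), with Orc1 and Cdc6, which license origins, at 16.2 to 22.8 CPM and 51.7 to 71.3 CPM. Mitotic genes stood at the background, 6 higher and 7 lower of 53 (4 lower without FRC1 replicate 2 or 3 or PAR replicate 1 or 3), and Mki67, the proliferation marker, was 259, 248 and 279 CPM in PAR and 257, 268 and 295 CPM in FRC1, with the groups overlapping.

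Imprinted genes, which are read from the copy of only one parent, were called lower more often than higher: 15 of 27 tested were lower and 1 higher, with a median of -0.27 and 8 lower without FRC1 replicate 2 or 3 and 9 lower without PAR replicate 2. H19, a long non-coding RNA that restrains growth, had 1065, 1016 and 1084 CPM in PAR and 824, 584 and 723 CPM in FRC1 (log2 difference -0.57 with an SE of 0.11, edgeR adjusted p = 0.0062), and Zim1, a zinc finger gene, fell from 73, 67 and 93.1 CPM to 43.9, 39.3 and 43.6 CPM (edgeR adjusted p = 0.0029). Zim1 and H19 lie on chromosome 7 but in separate imprinted regions. Hox genes, which record position along the body, were seldom called, with 2 higher and 1 lower of 24 (1 higher without FRC1 replicate 2 or 3 or PAR replicate 2); the fall was that of Hoxb9, which went from 9.45, 11.2 and 9.59 CPM to 3.33, 2.87 and 3.49 CPM (edgeR adjusted p = 3.80e-06). Clock genes included 6 lower and 2 higher of 17 (1 higher without FRC1 replicate 2 or PAR replicate 3), among them Bhlhe41, a repressor in the clock, which fell from 18.1 to 9.16 CPM, and Per3, from 10.7 to 6.59 CPM.

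Several of the largest relative falls were in genes of low level. Cd28, a costimulatory receptor of T cells, went from 9.31, 6.2 and 7.39 CPM to 1.52, 0.77 and 1.07 CPM (log2 difference -2.78 with an SE of 0.25, edgeR adjusted p = 2.00e-07). Arhgdib, a regulator of small GTPases, went from 12.8, 13.9 and 12.6 CPM to 3.49, 2.94 and 2.49 CPM (edgeR adjusted p = 8.71e-09). Unc13d, a factor of granule release in blood cells, went from 10, 11.2 and 9.95 CPM to 3.79, 1.47 and 1.64 CPM (edgeR adjusted p = 4.47e-05). The T cell and macrophage markers Cd3e, Adgre1 and C1qa had no read in either group. St8sia4, which builds polysialic acid, fell from 9.55 to 2.3 CPM, the scaffold gene Nedd9 from 45.2 to 15.4 CPM, and the glypican Gpc4 from 10.2 to 3.04 CPM. Pdlim2 and Sorbs3, adjacent genes on chromosome 14 that encode cytoskeletal adaptors, fell 2.67-fold and 2.68-fold. Among the largest relative rises were those of Fibcd1, a chitin-binding receptor (12.2 to 45.5 CPM), Ccbe1, a secreted factor of lymphatic growth (13.7 to 39.6 CPM), Adamtsl3, a matrix glycoprotein (1.05 to 5.78 CPM), and Whrn, a PDZ scaffold (11.9 to 33.2 CPM).

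For the SRCs of cycle 3, fitted against the same PAR libraries and therefore not an independent comparison, the levels of some of these genes were as follows. Hspa5 stood at 4369 ± 441 CPM (SD over 3 libraries), Creld2 at 246 ± 29.5, Il33 at 12.7 ± 0.661, Ppargc1a at 2.76 ± 0.392, Acta2 at 8.59 ± 5.29, Il11 at 1.91 ± 0.319 and Cspg4 at 52.3 ± 9.01. These values are set side by side with no test: the means of Acta2 and Il11 lay below those of PAR, and that of Cspg4 above that of FRC1.

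The FRC1 libraries were less alike than the PAR libraries. Over 10004 genes the median coefficient of variation was 4.38% in PAR and 5.31% in FRC1, and it passed 20% in 96 genes in PAR and 260 in FRC1. FRC1 replicate 1 was the FRC1 library nearest to PAR in 1058 of the 1702 genes called higher (62.2%) and in 1189 of the 1848 called lower (64.3%). Some genes placed this library among the parental ones: Smoc2, a secreted calcium-binding protein, had 7.84, 7.04 and 9.17 CPM in PAR and 8.11, 29.7 and 16.2 CPM in FRC1, and the receptor gene Notch3 had 12.9, 10.6 and 10.9 and 13.7, 5.67 and 6.41 CPM, and neither was called. Without replicate 1 the counts of higher members of both ER lists were 35 and 39 and the tricarboxylic acid cycle list had 20 lower, close to the values with it.

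**Figure D5:**
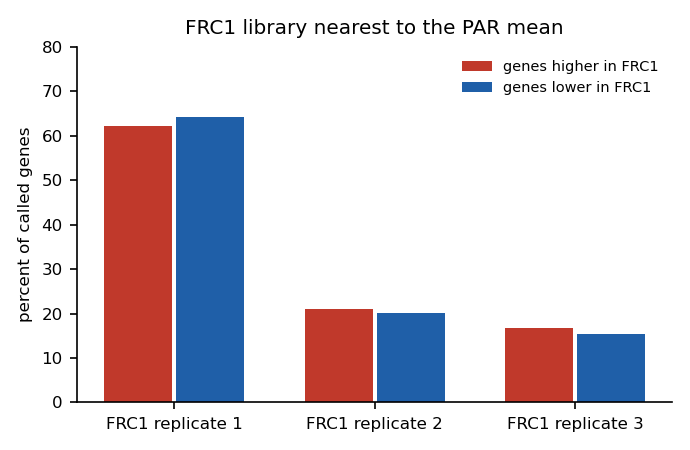
Share of the called genes (vertical axis, percent) in which each FRC1 library was the nearest of the 3 to the PAR mean, for genes higher (red) and lower (blue) in FRC1. Replicate 1 was nearest in 62.2% and 64.3%, against 15.5 to 21.1% for replicates 2 and 3.

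The differences were spread over the genome. Leaving out chromosome Y, with 2 tested genes and a median of 0.203, chromosome medians of the log2 fold change lay between -0.042 on chromosome X and 0.03 on chromosome 12. On chromosome X 35 of 435 tested genes were higher and 89 lower (20.5% against 14.7% overall). In windows of 21 neighbouring tested genes 95% of the medians lay between -0.154 and 0.147. The lowest window, with a median of -0.403, ran from Dram2 to Gstm4 on chromosome 3 (chr3:106547798-108044894) and held 7 genes called lower, Csf1 and Gstm1 among them, and 1 higher. The highest, with 0.266, ran from Mmp14 to Zfhx2 on chromosome 14 (chr14:54431612-55092324).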

How the data were processed

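RNA of 9 samples (3 each of PAR, FRC1 and SRC cycle 3) was read as stranded poly(A) libraries of 50-nt single reads, per the labels' protocols. The deposited values are raw read counts per gene made by the authors; HISAT2 2.1.0, HTSeq 0.9.1 and the build GRCm38 are named in the submitters' processing notes, while no strand setting or annotation is given in the sources used here. Without the strand setting, reads of overlapping and antisense genes cannot be told apart.

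Summary rows were removed; reads in no gene were 5.92 to 7.92% of the uniquely mapped reads. Genes passed edgeR's filterByExpr (minimum count 10, minimum total 15), and edgeR 4.0.16 (R 4.3.3) fitted a robust quasi-likelihood model with TMM scaling to all 9 libraries, with group as the only term and 6 residual degrees of freedom. P-values are two-sided, with Benjamini-Hochberg adjustment over 12540 genes, and the standard error is the log2 fold change divided by the root of F. The script was tested on simulated counts. Alternatives are given with the closing observations.

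The comparison and the gene lists were chosen with earlier results of these data known. Myod1, Myf5, Myog, Mki67, Cdkn2a, Cdkn2b, H19, Igf2, Mstn, Fst, Pax7 and Pdgfra were to be named in every case. The levels of Pax7 and Pdgfra are not given here. Other genes were named by a rule: up to 20 rises and 20 falls by fold change with a mean of at least 5 CPM in the higher group, 10 each by CPM, and up to 4 per list and direction with at least 1 CPM. Those chosen after their values were seen are Adcy3, Alg12, Arf1, Asns, Atf4, Atf5, Chac1, Col5a1, Copb1, Ddit3, Dnajb11, Dnajc3, Eif2ak3, Ern1, Ero1lb, Herpud1, Hmox1, Irs1, Manf, Notch3, P4ha2, Pdha1, Pdia4, Ppp1r15a, Rpn1, Scd1, Sec24d, Sec61a1, Sec61b, Smoc2, Syvn1, Tgfb1, Trib3, Xbp1 and Zfp57, and those at the ends of chromosome windows, as were the ER stress and unfolded protein response elements. Promoters came from RefSeq (GRCm38.p6) and were matched for 9430 of 12540 tested genes (75.2%), so shares over all tested genes are only a background.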

Additional observations from a re-analysis of the deposited data

How the results depend on the processing

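The number of called genes (3550) moved to 2327 to 3987 with 1 library left out, the number higher (1702) to 1080 to 1881, the number lower (1848) to 1247 to 2106, and the number with at least a 2-fold difference (330) to 272 to 414. With RLE size factors 3532 genes were called, with library sizes alone 3541 (1826 higher and 1715 lower), with DESeq2 2928 and with limma voom 3538. Tests against a 1.5-fold difference called 201 genes, a count that is smaller by construction. Requiring 5 CPM in 3 libraries left 133 genes with a 2-fold difference among 10192 tested. Genes with a 2-fold difference were often of low level. Their median CPM in the higher group was 3.39 for the 163 rises and 3.33 for the 167 falls. With the replicate number as a replicate block 3560 genes were called. Correlations of same-numbered deviations from the group means were 0.0852, 0.022 and 0.0363, and those of other pairs -0.0569 to 0.019. Each of the 6 libraries correlated best with its own number, and all these correlations were weak. Since each deviation is taken from a mean of few libraries, they cannot decide whether the labels' numbers pair the samples. No named gene changed direction under any alternative, and of 173 named genes that were called 5 lost the call under at least one: Asns, Cebpa, Ddit3, Timp3 and Zfhx2. At this depth 3 reads are 0.209 to 0.228 CPM, and genes without a read in both groups give no fold.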

Other observations

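Gene lists that the report did not describe held further named differences between FRC1 and PAR, called by the same test. Genes of excitation-contraction coupling, which turns an electrical signal into calcium release, included 4 called higher and 6 called lower of 18 tested (3 lower without PAR replicate 3). Stac3, an adaptor of the voltage sensor, had 31.1, 28.6 and 30.3 CPM in PAR and 20.5, 16.9 and 16.1 CPM in FRC1 (log2 difference -0.75 with an SE of 0.093, edgeR adjusted p = 7.36e-06), and Cacng1, a subunit of that channel, fell from 36.6 to 22.7 CPM. Atp2a2, the calcium pump of the ER in non-muscle and slow muscle cells, rose instead, from 597, 622 and 608 CPM to 739, 776 and 798 CPM (edgeR adjusted p = 1.11e-05), and so did Stim1, the sensor of ER calcium (4.99 to 8.42 CPM). Carriers of amino acids were lower in 8 of 25 cases and higher in 3: Slc7a8 fell from 9.24, 8.5 and 9.74 CPM to 4.09, 2.94 and 2.64 CPM (edgeR adjusted p = 4.28e-06), while Slc43a1 rose from 5.53, 5.97 and 6.82 CPM to 14.6, 15.6 and 15.6 CPM (edgeR adjusted p = 1.84e-07). For both carriers the 3 libraries of one group lay wholly apart from those of the other.

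Among antigen presentation genes 4 of 15 were lower and 3 higher (7 lower without FRC1 replicate 1). The lower ones were B2m, the light chain of class I molecules, which had 240.3, 229.7 and 222 CPM in PAR and 168, 187 and 166 CPM in FRC1 (log2 difference -0.41 with an SE of 0.052, edgeR adjusted p = 9.64e-06), H2-D1, a heavy chain that can share reads with its near-identical relatives (209 to 162 CPM), the peptide transporter Tap1 (6.68 to 3.05 CPM) and the class I transactivator Nlrc5 (11.7 to 6.8 CPM). The higher ones, Calr, Canx and Pdia3, are ER chaperones that the ER folding list also holds. Targets and partners of the YAP and TEAD factors included 9 called higher and 5 called lower of 25 (5 higher without PAR replicate 2, 2 lower without FRC1 replicate 2 or PAR replicate 3 and 3 lower without FRC1 replicate 3). Cyr61, a matricellular target, rose from 107 to 185 CPM, and the coactivator Wwtr1 fell from 182 to 149 CPM.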
